A study of Homo sapiens with 26 samples.

Results

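FOXA1dbd peaks that no FOXA1 peak touched were examined in human fibroblasts. They came from ChIP-seq (chromatin immunoprecipitation followed by sequencing) in BJ cells, an established line of foreskin fibroblasts. FOXA1 or one of its variants was expressed ectopically for 48 hours as a fusion to HALO, a protein tag, and the chromatin was pulled down with an antibody to the tag. The constructs compared were FOXA1, the variants FOXA1dbd, FOXA1nhaa and FOXA1rraa, whose suffixes the labels do not spell out, and HNF4A, a nuclear receptor, each with 2 ChIP libraries and 2 inputs. All were made in the same cell line, and the labels give neither the vector that drove expression nor the protein level reached. A peak belonged to the set when it was a row of the FOXA1dbd list, with the same coordinates counted once, and shared not a single base pair with any row of the FOXA1 list. The set held 1095 of 28831 FOXA1dbd peaks, and the other 27736 overlapped a FOXA1 peak. The peaks were thus chosen by the coordinates of these 2 peak lists, so the absence of FOXA1 peaks here is a description and was not tested.

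FOXA1 is a forkhead transcription factor, known in liver and in hormone-responsive tissues as a pioneer factor that can bind its sites in closed chromatin. Its forkhead domain makes winged-helix contacts with DNA and reads a short core, written here as TGTTTAC or TATTTAC. Fibroblasts are not among the cells it is known for, and their open enhancers are known for sites of AP-1, the FOS and JUN family of leucine zipper factors, and of TEAD, the partner of YAP and TAZ. HNF4A is a partner of FOXA factors in liver and reads a different, direct-repeat element.

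The central 200 bp of 9 of the 1095 peaks are printed here because they carry the patterns described afterwards. The windows are read 5′ to 3′ on the plus strand of the reference (hg19, GRCh37), with forkhead cores (TGTTTAC or TATTTAC, either strand) and AP-1 cores (TGANTCA, either strand) in capitals. The first is the peak with the highest deposited −log10 q-value and holds neither core, the next 4 lie over 100 kb from any FOXA1 peak and hold forkhead cores, and the last 4 lie within 10 kb of one and hold an AP-1 core. The BMPR1B and NXPH1 peaks were chosen after their values were seen. For printed peaks between genes, the gene named is that of the nearest protein-coding start, used as a landmark only. That start lay from 160090 bp (ANO3) to 332753 bp (SLC16A7) away. Other annotated starts lay closer to each, from 8948 bp (the peak named for SLC16A7) to 84354 bp (the peak named for CNTN5).
Highest-ranked peak, CDK14 intron: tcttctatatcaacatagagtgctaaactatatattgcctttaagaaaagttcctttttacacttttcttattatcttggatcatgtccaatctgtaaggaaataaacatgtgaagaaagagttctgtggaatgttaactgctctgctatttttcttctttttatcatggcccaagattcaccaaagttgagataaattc
Peak between genes near CNTN5: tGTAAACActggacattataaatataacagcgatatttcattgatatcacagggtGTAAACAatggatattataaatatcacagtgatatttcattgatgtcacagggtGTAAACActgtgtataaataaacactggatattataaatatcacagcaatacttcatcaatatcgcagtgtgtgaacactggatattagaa
Peak between genes near MCTP2: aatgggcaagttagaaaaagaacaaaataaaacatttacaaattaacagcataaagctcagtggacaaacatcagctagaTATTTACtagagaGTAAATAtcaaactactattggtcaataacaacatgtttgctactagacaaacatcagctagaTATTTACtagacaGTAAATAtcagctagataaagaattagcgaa
Peak between genes near ADGRD1: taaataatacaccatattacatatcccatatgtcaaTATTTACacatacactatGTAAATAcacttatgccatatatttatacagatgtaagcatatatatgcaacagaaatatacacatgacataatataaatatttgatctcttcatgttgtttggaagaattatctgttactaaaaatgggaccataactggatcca
Peak between genes near NXPH1: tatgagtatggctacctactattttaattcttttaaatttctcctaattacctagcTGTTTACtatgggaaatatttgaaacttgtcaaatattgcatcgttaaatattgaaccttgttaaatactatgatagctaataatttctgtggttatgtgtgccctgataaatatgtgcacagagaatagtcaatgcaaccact
Peak between genes near ANO3: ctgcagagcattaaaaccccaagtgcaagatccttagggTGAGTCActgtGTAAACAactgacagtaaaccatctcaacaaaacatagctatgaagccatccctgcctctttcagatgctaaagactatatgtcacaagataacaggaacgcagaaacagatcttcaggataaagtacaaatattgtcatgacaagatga
Peak in a BMPR1B intron: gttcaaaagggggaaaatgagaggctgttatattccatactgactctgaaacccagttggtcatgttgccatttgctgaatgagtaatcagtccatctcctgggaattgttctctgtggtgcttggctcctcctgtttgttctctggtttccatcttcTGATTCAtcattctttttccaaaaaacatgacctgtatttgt
Peak in an SLC8A1 intron: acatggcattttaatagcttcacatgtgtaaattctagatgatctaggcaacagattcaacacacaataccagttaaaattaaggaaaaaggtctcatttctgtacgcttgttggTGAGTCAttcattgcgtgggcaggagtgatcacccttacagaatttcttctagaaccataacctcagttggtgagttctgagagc
Peak between genes near SLC16A7: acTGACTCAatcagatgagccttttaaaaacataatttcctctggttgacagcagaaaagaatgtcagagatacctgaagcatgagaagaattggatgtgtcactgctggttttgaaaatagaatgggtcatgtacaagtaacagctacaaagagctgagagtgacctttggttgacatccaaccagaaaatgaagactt

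The highest-ranked peak lay at chr7:90727856-90728143 in an intron of CDK14, a cyclin-dependent kinase gene, 2672 bp from the nearest FOXA1 peak. Its deposited −log10 q-value was 23.1 and its deposited fold enrichment 11.0. None of the FOXA1nhaa, FOXA1rraa and HNF4A lists had a peak there. The peak near CNTN5, a gene of a neural cell adhesion protein, lay between genes at chr11:98731020-98731654, 808407 bp from the nearest listed FOXA1 peak, with a −log10 q-value of 17.9. It had 3 forkhead cores, 96 bp and 42 bp before and 12 bp after its centre. These cores were equally spaced and sat in near copies of the same stretch, repeated along the window. The peak near MCTP2 lay at chr15:95184383-95184633, between genes and 189287 bp from a FOXA1 peak, with a −log10 q-value of 17.8. Its 4 forkhead cores formed 2 pairs, each with 1 core on either strand. The stretch around the second pair was a near copy of the stretch around the first. The peak near ADGRD1, an adhesion G-protein-coupled receptor gene, at chr12:131818919-131819166 and 162562 bp from a FOXA1 peak, held 1 such pair. The peak near NXPH1, a neurexophilin gene, at chr7:9113299-9113590, held a single forkhead core 41 bp from its centre and lay 794715 bp from a FOXA1 peak.

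The peak near ANO3, an anoctamin gene, at chr11:26050120-26050496 and 3328 bp from a FOXA1 peak, held an AP-1 core and a forkhead core 58 bp and 47 bp before its centre. It shared 286 bp with a FOXA1nhaa peak. The peak in an intron of BMPR1B, a bone morphogenetic protein receptor gene, lay at chr4:95897902-95898139, 4746 bp from a FOXA1 peak and 1872 bp from the nearest transcription start. The peak in an intron of SLC8A1, a sodium-calcium exchanger gene, lay at chr2:40597094-40597472, 105 bp from a FOXA1 peak, and had an AP-1 core 18 bp after its centre. The peak near SLC16A7, a monocarboxylate transporter gene, at chr12:60495348-60495787, was the highest-ranked one that an HNF4A peak overlapped, and it lay 1053 bp from a FOXA1 peak.

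All deposited values belong to single peaks, with 1 list per construct and no list per library. No difference could therefore be tested against replicate error. Intervals given for shares are 95% Wilson intervals, and those for medians are order-statistic intervals. Both cover counting error over peaks only, and peaks of 1 list are not replicates. Read counts are not part of the lists, and the depth behind a peak is therefore unknown.

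The 1095 peaks were not spread through the FOXA1dbd list. Its 28850 rows, 19 of them repeats, fell into 15 stretches ordered by chromosome, and the first 4 stretches, with 1221 rows, held all 1095 peaks and 126 rows that overlapped FOXA1. Each of the other 27629 rows lay wholly inside a FOXA1 peak, and 12829 of them (46.4%) ended exactly on an edge of it. In 2581 of those rows the summit lay outside the row, against 0 of the first 1221 rows. The peak names carried numbers that rose along the genome. Of the numbers up to the largest one, 27902 (52.2%) were absent among rows named IP1 and 12232 (82.3%) among rows named IP3. The share of FOXA1dbd peaks outside FOXA1, 3.8%, is thus a property of the list as assembled, and how rows were kept is not given in the sources used here. Of the 1095 peaks 1045 were named IP1 and 50 were named IP3.

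The FOXA1 list had gaps of the same kind. Its numbers ran to 211576 and 62390 of them (29.5%) were absent. Of the 1095 peaks 1073 lay between 2 rows of the FOXA1 list on their chromosome. For 352 of these (32.8%) the 2 flanking FOXA1 rows had consecutive numbers, so no numbered FOXA1 peak was missing in between, whereas at least 1 number was skipped for the other 721. For those 721 peaks, a FOXA1 peak that was numbered but is not in the list cannot be told apart from no FOXA1 peak. Among the 4 printed peaks over 100 kb away, 8 numbers were skipped beside the peak near CNTN5 and 1 beside the peak near ADGRD1. Beside those near MCTP2 and NXPH1 0 were skipped. The share with no number skipped was 44.5% (95% interval 40.1 to 49.0) for peaks within 10 kb of FOXA1 and 23.5% (19.1 to 28.6) for those over 100 kb away. Genome tiles outside FOXA1 peaks showed the same fall, with 53.7% within 10 kb, 20.9% beyond 100 kb and 37.9% in all.

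The deposited values of the peaks outside FOXA1 were close to those of the other FOXA1dbd peaks. Their median −log10 q-value was 6.23 (interval 6.17 to 6.45, range 2.01 to 23.1), against 6.20 for the peaks that overlapped FOXA1. Their median fold enrichment was 5.21 (interval 5.18 to 5.30, range 1.62 to 11.0), against 5.18. Among rows named IP1 the median −log10 q-value was 6.34 outside FOXA1 and 6.45 inside, and the median fold enrichment was 5.18 in both. The strongest signals were nevertheless inside FOXA1 peaks. Of all IP1 peaks 184 had a higher −log10 q-value than the best peak outside FOXA1, and 76 of the 1045 IP1 peaks outside (7.27%) had one of at least 12.1, the level that the top 10% of all IP1 peaks reached. Peak width outside FOXA1 had a median of 240 bp and a range of 81 to 782 bp.

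Peaks on either side of the rule's boundary could lie very close to a FOXA1 peak edge. The closest peak outside lay 85 bp from a FOXA1 peak, at chr11:65887289-65887492 in an intron of PACS1, and peaks of FOXA1nhaa, FOXA1rraa and HNF4A all overlapped it. The next ones lay 100 bp away, at chr5:95666664-95666845 in an intron of a long noncoding RNA gene, and 105 bp away, in the SLC8A1 intron described above. Just inside the boundary were FOXA1dbd rows of a single base pair within FOXA1 peaks, in introns of RERE, RABGAP1L and ADAM12.

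Distances to the nearest FOXA1 peak spanned from 85 bp to over 1000 kb. The median was 15.1 kb (interval 12.5 to 18.5), with quartiles at 3.6 and 173 kb. All 200-bp tiles of the genome outside FOXA1 peaks had a median of 13.5 kb, with quartiles at 3.7 and 84.1 kb. The lower part of the distribution thus matched the tiles, and the upper part reached farther. Of the 1095 peaks 474 lay within 10 kb of a FOXA1 peak, 297 lay 10 to 100 kb away and 324 lay over 100 kb away. The last class made up 29.6% of the peaks (interval 27.0 to 32.4) and 23.4% of the tiles. These 3 distance classes were chosen after the values were seen.

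**Figure D1:**
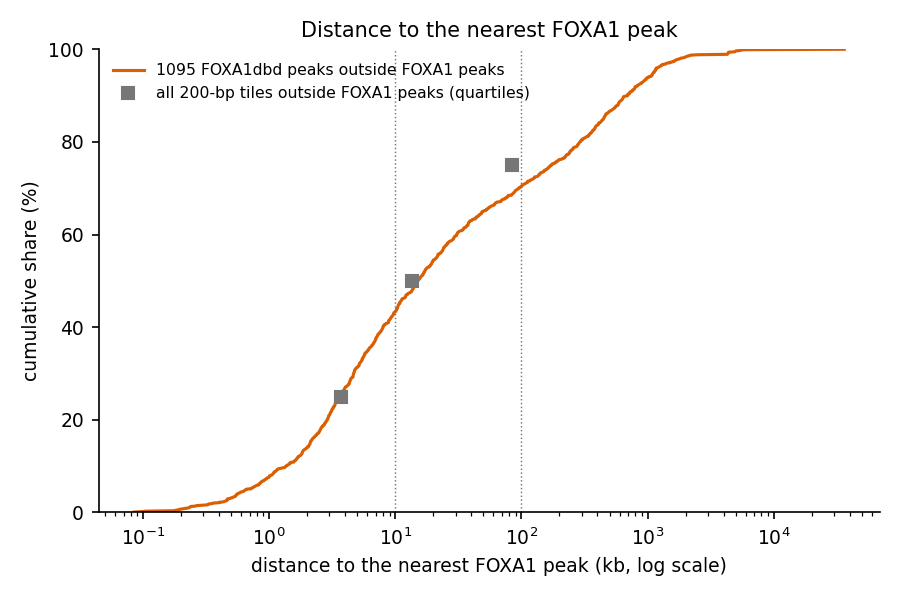
Cumulative share of the 1095 FOXA1dbd peaks outside FOXA1 peaks (line) against the distance to the nearest FOXA1 peak in kb on a log scale, with the quartiles of all 200-bp genome tiles outside FOXA1 peaks (squares) and dotted lines at 10 and 100 kb. The line passes close to the first 2 tile quartiles, at 3.7 and 13.5 kb, and reaches 75% at 173 kb, beyond the tile quartile of 84.1 kb.

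The peaks over 100 kb from FOXA1 lay in stretches poor in peaks of every list. Within 100 kb on either side, 275 of these 324 peaks (84.9%) had no other FOXA1dbd peak, 214 (66.0%) had no FOXA1nhaa peak, 313 (96.6%) had no FOXA1rraa peak and 314 (96.9%) had no HNF4A peak. The distance class itself bears on these counts, because it was chosen for having no FOXA1 peak in that span. Of the 28831 FOXA1dbd peaks 27736 overlapped a FOXA1 peak, so few others could lie there. Peaks of the other lists that overlap FOXA1 were kept out in the same way. The 474 peaks within 10 kb of FOXA1 had a median of 16 FOXA1 peaks, 3 other FOXA1dbd peaks and 11 FOXA1nhaa peaks in the same span. The −log10 q-value did not set the far peaks apart, with a median of 6.20 (interval 5.86 to 6.64) over 100 kb away and 6.45 (6.20 to 6.89) within 10 kb. The far peaks were narrower, with a median width of 227 bp (221 to 239) against 249.5 bp (242 to 256). Rows named IP1 made up 89.8% of the far peaks and 98.5% of those within 10 kb.

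Of the 1095 peaks 886 (80.9%, interval 78.5 to 83.1) overlapped no peak of FOXA1nhaa, FOXA1rraa or HNF4A, against 26% of all FOXA1dbd peaks. FOXA1nhaa peaks overlapped 111 (10.1%, interval 8.49 to 12.1), against 55.3% of all FOXA1dbd peaks. FOXA1rraa peaks overlapped 61 (5.57%, interval 4.36 to 7.09), against 61.9% of all. HNF4A peaks overlapped 68 (6.21%, interval 4.93 to 7.80), against 4.35% of all, so for HNF4A alone the share outside FOXA1 was not the lower one. The rule bears on these shares, because peaks that coincide with FOXA1 peaks were kept out. In the FOXA1rraa list 23217 peaks have the exact coordinates of a FOXA1 row and cannot overlap the set. Of all genome tiles outside FOXA1 peaks 1.15% touched a FOXA1nhaa peak, 0.325% a FOXA1rraa peak and 0.706% an HNF4A peak.

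The highest-ranked peak overlapped by FOXA1nhaa was in an intron of IL6R, the interleukin-6 receptor gene, at chr1:154403910-154404183. Its −log10 q-value was 18.8 and it shared 200 bp with the FOXA1nhaa peak. The highest-ranked one overlapped by FOXA1rraa lay between genes at chr6:19867394-19867688, 29963 bp from the start of ID4, a helix-loop-helix inhibitor gene, with a −log10 q-value of 19.9. Of the 61 peaks that FOXA1rraa overlapped, 23 were also overlapped by FOXA1nhaa, and 38 met a FOXA1rraa row that the list names Nonspecific_FOX, a name the labels do not explain.

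Overlap with the other lists was lowest far from FOXA1. FOXA1nhaa peaks overlapped 15.0% (interval 12.0 to 18.5) of the peaks within 10 kb, 12.5% (9.17 to 16.7) at 10 to 100 kb and 0.926% (0.315 to 2.69) beyond 100 kb. The shares for FOXA1rraa were 8.86%, 6.06% and 0.309%, and those for HNF4A were 11.0%, 5.39% and 0 of 324 (upper limit of the interval 1.17%). Genome tiles also met fewer such peaks with distance, with 2.06%, 0.656% and 0.0985% touching a FOXA1nhaa peak in the same 3 classes. The tile shares were 0.644%, 0.123% and 0.00724% for FOXA1rraa, and 0.964%, 0.825% and 0.0550% for HNF4A. Beyond 100 kb the tile share for HNF4A lay within the interval of the peaks. At each distance the share for FOXA1nhaa was above that of the tiles, although a tile is somewhat narrower than a typical peak.

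**Figure D2:**
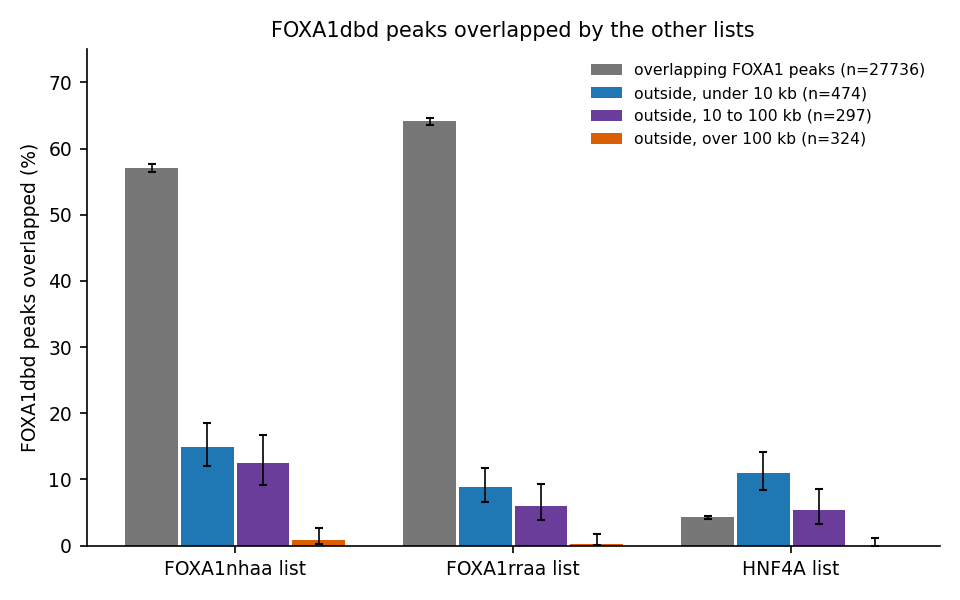
Share of FOXA1dbd peaks overlapped by at least 1 bp by a peak of FOXA1nhaa, FOXA1rraa or HNF4A (bars, 95% Wilson intervals as error bars), for the 27736 peaks overlapping FOXA1 and for the 1095 outside it in 3 distance classes. Over 100 kb from FOXA1 the 3 shares are 0.926%, 0.309% and 0.

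The sequence under the peaks held the forkhead and AP-1 cores at nearly the same rates as under the other FOXA1dbd peaks. Of the 1095 windows 229 held a forkhead core (20.9%, interval 18.6 to 23.4), against 22.2% of those overlapping FOXA1 and 7.09% of genome tiles outside FOXA1 peaks. An AP-1 core lay in 327 (29.9%, interval 27.2 to 32.6), against 28.8% and 6.11%. The TEAD core GGAATG, on either strand, lay in 13.9% (interval 12.0 to 16.1), against 14.3% and 10.6%. Either a forkhead or an AP-1 core was present in 522 peaks (47.7%), against 46.2% of those overlapping FOXA1, and the other windows held neither word. Both cores together were less frequent, in 34 (3.11%, interval 2.23 to 4.31), against 4.76% (4.51 to 5.01). A core match is a word in the sequence and does not show which protein touched it.

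Base composition was set against these counts, since both the peaks and the forkhead core are rich in A and T. The median GC content of the windows was 35.5%. Genome tiles of the same GC content would hold a forkhead core in 9.86% of windows, which puts the observed share at 2.12 times that level (interval 1.89 to 2.38). The reversed core, CATTTGT or CATTTAT on either strand, has the same letters in the opposite order and stood at 1.07 times (0.941 to 1.22). The AP-1 core stood at 4.60 times (4.19 to 5.03). For the 27736 peaks overlapping FOXA1 the same ratios were 2.11, 1.03 and 4.42. Windows of 200 bp centred 500 and 1000 bp to either side of the 1095 centres held a forkhead core in 6.58% to 8.77% and an AP-1 core in 6.30% to 7.95%. The flanking windows and the GC comparison were added after the data were seen.

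**Figure D3:**
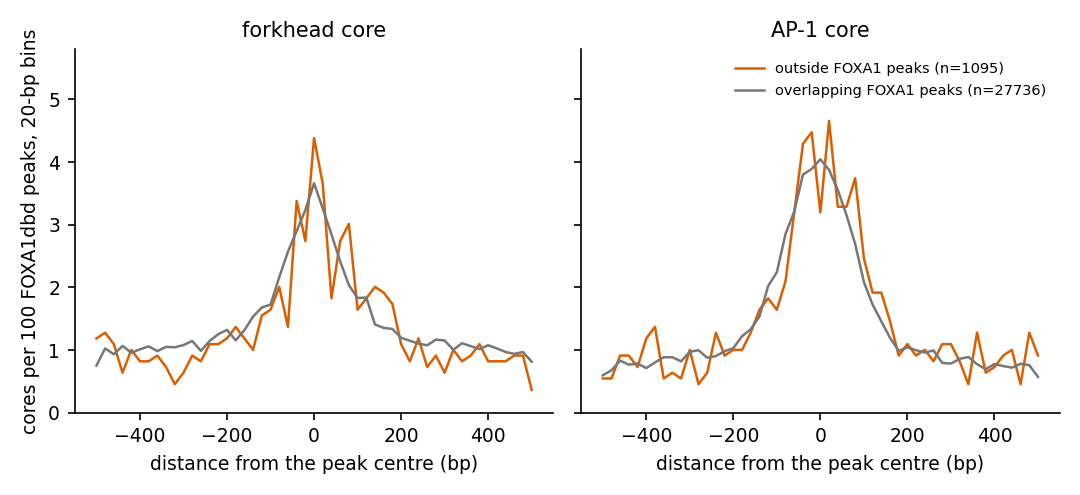
Forkhead cores (left) and AP-1 cores (right) per 100 FOXA1dbd peaks in 20-bp bins, against the distance from the peak centre in bp, for the 1095 peaks outside FOXA1 and the 27736 overlapping it. In both sets the 2 cores are concentrated around the centre and fall to a flat level before 400 bp, and the line for the smaller set is more ragged.

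Other constructs' peaks outside FOXA1 held these cores at different rates. Of the 43957 FOXA1nhaa peaks outside FOXA1, 11.3% held a forkhead core and 11.3% an AP-1 core. Of the 9396 FOXA1rraa peaks outside FOXA1 the shares were 24.6% and 13.2%, and of the 35703 HNF4A peaks they were 2.94% and 22.8%. The AP-1 share of the FOXA1dbd peaks, 29.9%, was above all 3 as counted. At equal GC content it was not above that of HNF4A, since the ratio to the tiles was 4.60 (4.19 to 5.03) for FOXA1dbd and 4.96 (4.87 to 5.06) for HNF4A, against 1.70 for FOXA1nhaa and 2.0 for FOXA1rraa. These lists differ in length and calling, and the effect of that on the shares was not tested.

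Beyond 100 kb from FOXA1 the forkhead share was higher and the AP-1 share lower than within 10 kb, while both were nearly level from 1 to 30 kb. At 30 to 100 kb the forkhead share was 25.4% (18.4 to 34.0), against 15.1% (10.6 to 21.1) at 10 to 30 kb. These 2 intervals overlapped, and mean GC content was 34.2% against 37.6%. A forkhead core was present in 14.6% (interval 11.7 to 18.0) of the peaks within 10 kb, 19.2% (15.1 to 24.1) at 10 to 100 kb and 31.8% (27.0 to 37.0) beyond 100 kb. An AP-1 core was present in 33.5% (29.4 to 37.9), 35.0% (29.8 to 40.6) and 19.8% (15.8 to 24.4), and the TEAD core in 19.4% (16.1 to 23.2), 13.1% (9.76 to 17.4) and 6.48% (4.28 to 9.70). In these 200-bp windows the intervals of the nearest and farthest classes did not overlap for any of the 3 cores. Nor did they for the reversed core, which was present in 13.5% (10.7 to 16.9) within 10 kb and 23.5% (19.2 to 28.4) beyond 100 kb. Windows with at least 2 forkhead cores made up 8.64% (6.05 to 12.2) of the peaks beyond 100 kb and 2.32% (1.30 to 4.11) of those within 10 kb. How many of these windows hold copies of a repeated stretch, as those near CNTN5 and MCTP2 do, was not counted.

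**Figure D4:**
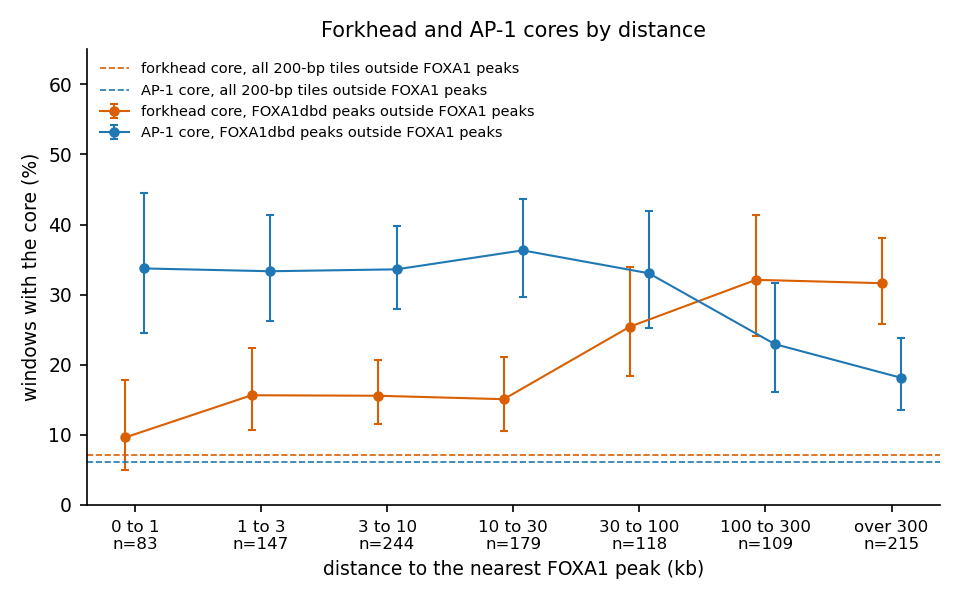
Share of the FOXA1dbd peaks outside FOXA1 peaks whose central 200 bp hold a forkhead or an AP-1 core (points, 95% Wilson intervals), in 7 steps of distance to the nearest FOXA1 peak in kb, with the shares in all genome tiles outside FOXA1 peaks as dashed lines. The forkhead share is 9.64% in the nearest step and 31.6% in the farthest, and the AP-1 share is 33.7% and 18.1%.

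GC content also fell with distance, with a median of 38.3% within 10 kb, 36.5% at 10 to 100 kb and 29.8% beyond 100 kb. At equal GC content the forkhead share was 1.71 times (interval 1.37 to 2.11) the tile level within 10 kb, 2.08 times at 10 to 100 kb and 2.57 times (2.18 to 2.99) beyond 100 kb. The reversed core stood at 0.927, 1.11 and 1.21 times. The AP-1 ratio was 5.02 (4.41 to 5.68), 5.32 and 3.21 (2.57 to 3.97). Among the peaks with no FOXA1 number skipped beside them, a forkhead core was present in 11.4% of 211, 18.6% of 70 and 38.0% of 71 in the 3 classes, and an AP-1 core in 37.4%, 38.6% and 14.1%.

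The rise of the forkhead share was not seen in 2 other sets, while the AP-1 order was seen in one of them. Among FOXA1dbd peaks that overlapped a FOXA1 peak, 172 had their next FOXA1 peak over 100 kb away, and 21.5% of them (interval 16.0 to 28.2) held a forkhead core, against 22.1% of the 23112 with one within 10 kb. Their AP-1 shares came in the same order as outside FOXA1, with 28.4% within 10 kb, 31.0% at 10 to 100 kb and 24.4% (18.6 to 31.4) beyond 100 kb. Among FOXA1nhaa peaks outside FOXA1 the forkhead share was 11.4% within 10 kb and 10.6% of the 1268 beyond 100 kb, while the AP-1 share was 10.7% and 17.5%. The difference between the sets was not tested.

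Peaks shared with HNF4A were rich in AP-1 cores. Of the 68 peaks that HNF4A overlapped, 37 (54.4%, interval 42.7 to 65.7) held an AP-1 core, against 28.2% (25.6 to 31.1) of the other peaks outside FOXA1. Only 4 of the 68 (5.88%) held a forkhead core, and 1 held the HNF4 core word searched, CAAAGTCCA on either strand. Of the 68, 6 lay within 1000 bp of a transcription start. Among the FOXA1dbd peaks that overlapped both FOXA1 and HNF4A, 45.1% of 1187 held an AP-1 core. The 111 peaks shared with FOXA1nhaa held an AP-1 core in 43.2% (34.4 to 52.5) and a forkhead core in 18.0% (12.0 to 26.2).

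Relative to genes, the peaks outside FOXA1 lay farther from starts and more often between genes. By the GENCODE annotation 46 (4.2%, interval 3.16 to 5.56) lay within 1000 bp of a transcription start, against 9.47% of the FOXA1dbd peaks overlapping FOXA1 and 7.46% of genome tiles outside FOXA1 peaks. Introns held 48.5%, against 62.8% and 51.9%, and exons held 2.28%. Space between genes held 45.0% (interval 42.1 to 48.0), against 23.1% and 37.4%. Beyond 100 kb from FOXA1 the share between genes was 57.7% (52.3 to 63.0), where 54.1% of tiles at that distance also lay. The highest-ranked peak near a start was at chr2:113522934-113523140, 792 bp from the start of CKAP2L, a spindle-associated protein gene, with a −log10 q-value of 12.5.

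A total of 362 protein-coding genes held 1 or more of the peaks, and 35 held at least 2. The median length of the 362 genes was 244 kb, against 27.2 kb for all protein-coding genes, and a long gene is more likely to hold any given position. PCDH15, a protocadherin gene of 1825 kb known for its part in hearing, held 5 peaks, with −log10 q-values from 3.15 to 9.75. It held no row of the FOXA1 list, and these 5 were its only FOXA1dbd peaks. Whether numbered FOXA1 peaks absent from the list fell within PCDH15 was not examined. PTPRD, a receptor tyrosine phosphatase gene of 2299 kb, held 3 peaks, which were all its FOXA1dbd peaks, and 1 FOXA1 peak. PDE4D, a phosphodiesterase gene of 1553 kb, also held 3, but among 28 FOXA1dbd peaks and 108 FOXA1 peaks. MDGA2, DCC and CDH18, of neural cell surface proteins, tied with 3 peaks each.

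The 10 highest-ranked peaks outside FOXA1 had −log10 q-values from 17.7 to 23.1 and fold enrichments from 4.65 to 11.0. Of these 10, 4 lay in introns and 6 between genes, 6 lay within 10 kb of a FOXA1 peak and 2 beyond 100 kb. A forkhead core was present in 3 of them and an AP-1 core in 0. The last places rest on a tie, since 1 more peak had the same −log10 q-value and fold enrichment as the lowest of the 10, and that peak lay in an exon and held an AP-1 core. The third, at chr16:46496296-46496636, had a −log10 q-value of 19.8 with a fold enrichment of only 4.65, and the fourth, at chr3:75791925-75792203 in an intron of ZNF717, a zinc finger gene, had 19.3 with 4.87. The others of the 10 had fold enrichments of 8.83 or more.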

How the data were processed

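ChIP-seq peak lists of 5 HALO-tagged constructs were used, 1 deposited list each. Per the submitters' processing notes the tools were Bowtie2 2.3.4.1, Picard, GATK 4.2.6.0, bedtools 2.27.1, MACS2 2.2.7.1 and deepTools 3.5.0, with the hg19 build. Whether peaks were called per library or on pooled libraries, and how inputs were used, is not given in the sources used here. The deposited FOXA1dbd list holds a score per peak (the whole-number part of 10 times the −log10 q-value), a fold enrichment (a ratio over background), a −log10 p-value, a −log10 q-value and a summit offset, as the authors' peak caller gave them. These values were used only to describe and rank peaks within that list. From the deposited FOXA1 list only coordinates and peak names were used. A down-sampled FOXA1 list and the HALO-tagged H2B samples were not used here.

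Overlap meant at least 1 bp. Windows were centred on the summit, or on the midpoint of rows whose summit fell outside them. Cores were searched in the central 200 bp and set against all 14292991 tiles of 200 bp without unknown bases on chromosomes 1 to 22, X and Y of GRCh37. Expected shares at equal GC content average the tile shares at the GC content of each window. Transcription starts, exons and introns came from GENCODE 44 lifted to GRCh37. Python 3.11.15, pandas 2.3.3, numpy 2.4.6, scipy 1.17.1 and pysam 0.24.0 were used, and the overlap and core searches were tested on simulated data. Named sites were the 10 highest-ranked peaks, the 5 highest with a forkhead core, the highest overlapped by each other list and near a start, the 3 closest to a FOXA1 peak, the 3 smallest overlaps and the 3 genes holding most peaks. The sites and words were chosen with earlier results of these data known. No test was made, since each construct has 1 list. The alternatives tried were other overlap, distance, width, name, q-value and chromosome rules, other windows and other start definitions.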

Additional observations from a re-analysis of the deposited data

How the results depend on the processing

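No paired analysis was possible because there is only 1 list for a construct, and no result comes from a test over libraries. Of 64 planned settings, 51 left their result within its interval or within 1.5 times the count, and 13 did not. Counting peaks as outside FOXA1 when centres lay over 200 bp apart gave 3622 peaks, a median gap of 0 kb, 8.53% near a start, and overlaps of 51.5% with FOXA1nhaa, 53.4% with FOXA1rraa and 4.25% with HNF4A. The top 50% by q-value left 578 peaks, 7.09% of them overlapped by FOXA1rraa. Asking for 50% of the shorter peak put HNF4A at 4.57%. Protein-coding starts alone gave 2.10% near a start, and 2500 bp gave 10.8%. The forkhead share was 13.2% in the central 100 bp and 17.4% for the reversed core.

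Of 39 settings added after the data were seen, 15 moved a value. The 352 peaks with no FOXA1 number skipped had a median gap of 5.75 kb, 9.09% overlapped by HNF4A, 18.2% with a forkhead core and 33.0% with an AP-1 core. Their forkhead shares were 38.0% beyond 100 kb and 11.4% within 10 kb, and their AP-1 share beyond 100 kb was 14.1%. In the central 100 bp the forkhead shares were 21.3% beyond 100 kb and 8.65% within 10 kb, and the AP-1 shares were 17.6% in all, 13.6% beyond 100 kb and 19.2% within 10 kb. The reversed core was present in 23.5% beyond 100 kb and 13.5% within 10 kb. The top 50% by q-value had an AP-1 core in 15.5% beyond 100 kb. In every setting run for the distance classes (names, window, centre, chromosomes, q-value, skipped numbers) the forkhead share was higher, and the AP-1 share lower, beyond 100 kb than within 10 kb. The share of repeat-masked bases was not run, since the reference used here marks no repeats. Depth is unknown, and with 1 list per construct neither biological nor technical variation can be given.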

Other observations

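The 1095 peaks were scattered along the chromosomes. Only 18 lay within 10 kb of another one and 115 within 100 kb, and neighbouring ones were a median of 773 kb apart. Chromosome 21 had 26, which is 7.60% of its FOXA1dbd peaks, and chromosome 12 had 45 (2.74%), against 3.8% over all chromosomes. Chromosome Y had 1, beside 12 overlapping FOXA1 (7.69%). On chromosome X there were 0, beside 111 FOXA1dbd peaks overlapping FOXA1, a number at which a share of 3.8% would also give few. The 50 peaks named IP3 were narrower, with a median of 114 bp against 244 bp for those named IP1. They also lay farther from FOXA1, with a median of 316 kb against 13.9 kb. These values are given without a test.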
